A study of Mus musculus with 4 samples.

Results

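The 32 genes described here encode enzymes and regulators of sterol and fatty acid synthesis. They were chosen by name, as a list of the SREBP (sterol regulatory element-binding protein) pathway and its targets. The rule used no measured value, but the list was drawn up with earlier results of these data known. All 32 were found by Ensembl identifier among the 21971 genes of the count table, and all 32 passed the filter on low counts that left 14305 genes for testing. They were measured in NMuMG, a mouse mammary gland epithelial cell line, by sequencing of total RNA after depletion of ribosomal RNA. In order of role, 8 members act in the mevalonate and isoprenoid steps, 11 in the squalene and sterol steps, 6 regulate the pathway or carry sterol inside the cell, and 7 act in fatty acid and glycerolipid synthesis.

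The study had 4 libraries, 1 for each combination of 2 stable lines and 2 times. The groups were Vp16-TRF1ΔN cells after 24 h with TGFβ at 5 ng/ml, Vp16-TRF1ΔN cells at 0 h, TRF1ΔN cells after 24 h with TGFβ at 5 ng/ml, and TRF1ΔN cells at 0 h. Both lines stably overexpressed a mutated human form of the telomere protein TRF1, which in the Vp16-TRF1ΔN line was joined to Vp16, a viral transcription activator, and the study used that fusion to raise TERRA-like long non-coding RNA and ask how this changes the epithelial-to-mesenchymal programme that TGFβ starts. The cells of all 4 libraries grew in medium with fetal bovine serum, which brings lipoprotein sterol, and with insulin. The promoter that drives each transgene, and whether a line is 1 clone or a pool, were not given in the sources used here. There was no untransfected line and no culture kept for 24 h without TGFβ, so the effects of TGFβ and of 24 h in culture cannot be told apart.

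Cells make cholesterol from acetyl-CoA through the mevalonate pathway, squalene and lanosterol, and they make fatty acids from the same acetyl-CoA through malonyl-CoA. SREBP transcription factors are held as precursors in the endoplasmic reticulum by SCAP and INSIG proteins, and when sterol is scarce SCAP carries them to the Golgi, where proteases release the active form. SREBP-2, encoded by Srebf2, acts mainly on sterol genes, and SREBP-1, encoded by Srebf1, mainly on fatty acid genes, and in mammary epithelium both programmes supply milk and membrane lipid.

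Total gene counts ran from 35418985 in Vp16-TRF1ΔN cells at 24 h to 45983910 in TRF1ΔN cells at 0 h, and levels are given as CPM, the counts per 1000000 counts of the library after TMM scaling. The deposited table holds a row for the TRF1ΔN sequence, which read 4.65 CPM at 24 h and 2.85 CPM at 0 h in the Vp16-TRF1ΔN line, against 186 CPM at 24 h and 39.0 CPM at 0 h in the TRF1ΔN line. A row for Vp16 held 27 counts at 24 h and 15 at 0 h in the Vp16-TRF1ΔN line, against 1 count at 24 h and 0 at 0 h in the TRF1ΔN line. The Vp16 row was thus as labelled at low counts, while the TRF1ΔN row, whose sequence both constructs are named for, was far lower in the Vp16-TRF1ΔN line. Of 8 epithelial markers, 6 were in the table, and they moved both ways. The keratins Krt8 and Krt18 were at 1572 CPM or more in all 4 libraries and were called higher with TGFβ (log2 change 0.30 and 0.57), whereas Krt19 (-3.41) and Cdh1, which encodes E-cadherin (-1.45), were called lower, and Epcam and Esrp1 were under 0.4 CPM in every library. The 6 TGFβ-response markers all rose with TGFβ, and the 10 proliferation markers all fell, with summed levels of 801 CPM at 24 h and 2816 CPM at 0 h in Vp16-TRF1ΔN cells and of 1164 CPM at 24 h and 3044 CPM at 0 h in TRF1ΔN cells. Because adipocytes express many of the same genes, their markers were read too. Of 8 adipocyte markers 6 were in the table, Adipoq had at most 1 count in any library, Fabp4 at most 2 and Retn at most 3, Cidec and Cd36 had at most 25 counts at 0 h and at most 2 at 24 h, and the summed level was 22.8 CPM at 24 h and 23.4 CPM at 0 h in Vp16-TRF1ΔN cells and 15.2 CPM at 24 h and 21.3 CPM at 0 h in TRF1ΔN cells, nearly all of it Pparg. Fibroblast markers (5 of 6 in the table) summed to 13.1 CPM at 24 h and 1.92 CPM at 0 h in Vp16-TRF1ΔN cells, and to 26.8 CPM at 24 h and 1.36 CPM at 0 h in TRF1ΔN cells. Immune markers summed to at most 5.46 CPM and endothelial markers to at most 1.31 CPM. The part of the marker changes in the results below was not tested, and in bulk RNA fewer cells of a type and less RNA per cell cannot be told apart.

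After 24 h of TGFβ, 17 of the 32 genes were lower and 2 were higher, averaged over both lines. The test was edgeR's quasi-likelihood test in an additive model of line and time over all 14305 genes, with Benjamini-Hochberg adjusted p under 0.05, and it called 25.1% of all genes lower and 23.5% higher. The genes that fell most were Scd1 and Elovl6, which make monounsaturated and long-chain fatty acids, and Srebf1 itself. They were 3.0-fold, 2.62-fold and 2.33-fold lower, and no other member called was at least 2-fold changed (10.4% of all genes were called at least 2-fold lower). Ggps1 and Insig1 were the 2 that rose. Across the 32 genes the median log2 change was -0.30, beside -0.00 over all genes tested, and 24 of the 32 had a negative change (50.1% of all genes). DESeq2's Wald test, run beside it, called 12 members lower and none higher, against 16.9% lower and 14.7% higher of all genes, and it did not call Ggps1 or Insig1 (adjusted p = 0.0823 and 0.308). Without the line as a term 10 were called lower and 1 higher by edgeR, and at adjusted p under 0.01 with the line term 9 and 0, which are Acat2, Lss, Msmo1, Ebp, Sc5d, Stard4, Srebf1, Elovl6 and Scd1.

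By role, not every gene of a role moved. The counts are to be read against the 25.1% of all genes called lower and the 23.5% called higher. In the mevalonate and isoprenoid steps 4 of 8 fell and 1 rose, with a median log2 change of -0.28. Among the squalene and sterol steps 7 of 11 fell and none rose, with a median of -0.42. Of the regulators and sterol carriers 3 of 6 fell and 1 rose (median -0.33), and of the fatty acid and glycerolipid genes 3 of 7 fell and none rose (median -0.12). These counts describe a list of chosen genes, and their difference from the other lipid lists read below was not tested.

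The additive model had 1 library per group and 1 residual degree of freedom, so each line served as the repeat of the other. A p-value thus sets the average change against an error. That error comes from how far the 2 lines differed in response and from the spread of other genes. The signs were the same in both lines for 29 of 32 members (88.3% of all genes). Both 24 h libraries lay below both 0 h libraries for 18 members (39.8% of all genes tested), and above them for 5 members, Tm7sf2, Nsdhl, Insig1, Ggps1 and Acly (38.9%). Within a single line there was no replicate, and changes were counted when they were at least 1.5-fold, the mean was at least 1 CPM and the 95% counting interval excluded a ratio of 1. In Vp16-TRF1ΔN cells 10 members were lower by this rule (16.1% of genes) and none higher (14.0%), namely Acat2, Idi1, Fdps, Lss, Cyp51, Msmo1, Ebp, Srebf1, Elovl6 and Scd1. In TRF1ΔN cells 9 were lower (18.7%) and none higher (16.3%), namely Acat2, Lss, Msmo1, Ebp, Sc5d, Insig2, Srebf1, Elovl6 and Scd1.

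To show what the members share outside their levels, the 250 bases before each listed RefSeq transcription start (build GRCm38.p6) were read for 26 of the 32 genes. Dhcr7, Insig2, Srebf1, Pmvk and Scap had several listed starts. A gene was counted for a motif when any of its windows held it, so 2 motifs of such a gene can lie in different windows. The 4 motifs searched on both strands were TCACNCCAC, a form of the sterol regulatory element, the CCAAT box that NF-Y binds, the GC box GGGCGG that Sp factors bind, and the palindromic E-box CACGTG, which SREBP-1 and other basic helix-loop-helix factors bind. NF-Y and Sp1 are known to work with SREBP on such promoters. A CCAAT box was present in 20 of the 26 (76.9%), against 37.5% of 27025 genes with a promoter in the table and 40.6% of the 10098 of those that were tested here. The GC box was likewise in 20 of 26 (76.9%), against 35.4% of all and 63.6% of tested genes. The E-box was in 5 of 26 (19.2%), namely Dhcr7, Hsd17b7, Insig1, Sc5d and Scap, against 6.86% of all and 9.695% of tested genes. The sterol regulatory element in this strict form was in 1 of 26, Hmgcs1, against 1.225% of all and 1.287% of tested genes. A match is a run of letters, not a bound site, and looser forms of the element were not searched.

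The 6 promoters shown are those of 4 genes that fell (Hmgcs1, Lss, Ebp and Elovl6) and of the 2 that rose (Insig1 and Ggps1). They are written 5′ to 3′ on the strand of the gene, with motif matches in capitals (ATTGG is CCAAT on the other strand, CCGCCC is the GC box on the other strand). The Hmgcs1 window (chr13:119690101-119690350, plus strand) held 1 sterol regulatory element, 3 CCAAT boxes and 2 GC boxes. The Lss window (chr10:76531355-76531604, plus strand) held 1 CCAAT box and 2 GC boxes, and that of Ebp (chrX:8193513-8193762, minus strand) 2 CCAAT boxes and 1 GC box. The Elovl6 window (chr3:129532136-129532354, plus strand) held none of the 4 motifs. Insig1 (chr5:28071162-28071362, plus strand) had 1 CCAAT box, 3 GC boxes and 1 E-box, and Ggps1 (chr13:14063489-14063738, minus strand) had 3 CCAAT boxes alone. For Elovl6 and Insig1, 31 and 49 bases that lie inside an annotated transcript were left out.
Hmgcs1: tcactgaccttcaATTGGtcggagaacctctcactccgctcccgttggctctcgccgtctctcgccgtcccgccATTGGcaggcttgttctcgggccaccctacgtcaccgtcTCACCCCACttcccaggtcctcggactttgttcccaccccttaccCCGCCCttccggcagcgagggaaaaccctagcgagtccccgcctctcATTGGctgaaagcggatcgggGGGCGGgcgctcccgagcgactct
Lss: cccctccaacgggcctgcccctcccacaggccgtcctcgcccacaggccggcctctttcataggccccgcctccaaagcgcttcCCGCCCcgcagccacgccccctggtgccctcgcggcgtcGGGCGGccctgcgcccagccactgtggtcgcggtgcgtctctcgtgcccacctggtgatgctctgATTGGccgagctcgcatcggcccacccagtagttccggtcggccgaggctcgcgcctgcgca
Ebp: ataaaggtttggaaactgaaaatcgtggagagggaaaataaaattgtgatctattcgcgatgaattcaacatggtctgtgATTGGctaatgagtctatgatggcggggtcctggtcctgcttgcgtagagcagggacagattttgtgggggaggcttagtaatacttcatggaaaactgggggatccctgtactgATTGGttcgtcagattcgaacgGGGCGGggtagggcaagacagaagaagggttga
Elovl6: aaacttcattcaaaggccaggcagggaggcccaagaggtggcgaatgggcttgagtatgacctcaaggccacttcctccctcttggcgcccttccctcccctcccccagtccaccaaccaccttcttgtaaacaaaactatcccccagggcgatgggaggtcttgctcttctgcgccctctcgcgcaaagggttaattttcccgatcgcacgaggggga
Insig1: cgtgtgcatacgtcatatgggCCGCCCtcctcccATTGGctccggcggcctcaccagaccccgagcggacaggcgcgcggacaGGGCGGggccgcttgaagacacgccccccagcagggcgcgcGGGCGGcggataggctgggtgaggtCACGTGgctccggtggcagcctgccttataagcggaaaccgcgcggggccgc
Ggps1: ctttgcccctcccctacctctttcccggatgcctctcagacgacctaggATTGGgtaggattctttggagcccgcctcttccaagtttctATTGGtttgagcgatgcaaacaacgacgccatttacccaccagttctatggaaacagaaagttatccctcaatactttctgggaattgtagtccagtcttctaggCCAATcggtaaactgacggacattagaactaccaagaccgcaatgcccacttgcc
Genes that fell and genes that rose thus both carried CCAAT boxes, and Elovl6, the member with the next lowest change after Scd1, carried none of the 4 motifs in this window.

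Mevalonate and isoprenoid steps. Acat2, a cytosolic thiolase that joins acetyl-CoA units, had 20.01 CPM at 24 h and 33.8 CPM at 0 h in Vp16-TRF1ΔN cells, and 22.1 CPM at 24 h and 38.1 CPM at 0 h in TRF1ΔN cells. Both treated libraries were below both untreated ones (39.8% of all genes), and the average log2 change was -0.77 ± 0.08 (SE, adjusted p = 0.00289, edgeR). Hmgcs1, the HMG-CoA synthase that makes the substrate of the rate-limiting reductase, had 92.9 CPM at 24 h and 117 CPM at 0 h in Vp16-TRF1ΔN cells, and 109 CPM at 24 h and 125 CPM at 0 h in TRF1ΔN cells. Its fall was small, at -0.26 ± 0.07 on the log2 scale (adjusted p = 0.0369, edgeR), and DESeq2 did not call it (adjusted p = 0.112). The kinases that follow had changes of similar size. Mevalonate kinase (Mvk) had 15.7 CPM at 24 h and 18.0 CPM at 0 h in Vp16-TRF1ΔN cells and 16.9 CPM at 24 h and 20.4 CPM at 0 h in TRF1ΔN cells, and its change of -0.24 did not pass the test (adjusted p = 0.0841, edgeR). Phosphomevalonate kinase (Pmvk) had 17.4 CPM at 24 h and 21.02 CPM at 0 h in Vp16-TRF1ΔN cells and 17.3 CPM at 24 h and 21.4 CPM at 0 h in TRF1ΔN cells, a fall of 0.29 on the log2 scale (adjusted p = 0.0441, edgeR). DESeq2 called neither kinase. Mvd, which decarboxylates diphosphomevalonate, stayed within 14.6 to 17.3 CPM in the 4 libraries, and its change of 0.08 did not pass the test.

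The isoprenoid steps went both ways. Fdps, which makes farnesyl diphosphate, had 5.56 CPM at 24 h and 9.06 CPM at 0 h in Vp16-TRF1ΔN cells, and 7.70 CPM at 24 h and 11.2 CPM at 0 h in TRF1ΔN cells. The change was -0.62 ± 0.12 (adjusted p = 0.017, edgeR), which DESeq2 did not call (adjusted p = 0.0627). Ggps1 extends farnesyl to geranylgeranyl diphosphate, a lipid used for protein prenylation, and it had 42.2 CPM at 24 h and 34.0 CPM at 0 h in Vp16-TRF1ΔN cells, and 44.2 CPM at 24 h and 32.8 CPM at 0 h in TRF1ΔN cells. Both treated libraries exceeded both untreated ones (38.9% of all genes), with a change of 0.37 ± 0.08 (adjusted p = 0.0182, edgeR). Idi1, the isopentenyl diphosphate isomerase that supplies Fdps, was the least abundant member. Its 4 libraries held 16 counts at 24 h and 54 at 0 h in Vp16-TRF1ΔN cells, and 49 at 24 h and 83 at 0 h in TRF1ΔN cells, which is 0.468 and 1.25 CPM against 1.17 and 1.74 CPM. Its change of -0.90 ± 0.31 did not pass the test (adjusted p = 0.0718, edgeR).

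Low levels of Idi1 and Fdps stand beside shared sequence. Of the 50-base words of the longest transcript, 86.4% for Fdps and 30.5% for Idi1 also occur in other annotated genes, 7 and 4 of which are pseudogenes. Acaca (52.6%, all with the pseudogene Gm5182), Acat2 (45.9%, with its near copy Acat3 among them) and Fdft1 (30.7%) were the other members above 20%. How the submitters' counting treated reads that match several places is not given in the sources used here, so levels of these 5 genes are uncertain. The strand setting is not given either, and exons of Fdft1 (18.3% of bases, Ctsb), Scap (13.2%, 5830462I19Rik), Hmgcs1 (12.1%, Gm48342), Idi1 (9.22%, Gm48574) and Ggps1 (5.44%, Arid4b) overlap a gene on the opposite strand. Those of Fdps (26.7%, Gm43738) and Tm7sf2 (12.1%, Vps51) overlap a gene on the same strand. Among the 27 other members 15 fell (25.1% of all genes) and 2 rose (23.5%) with TGFβ.

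Squalene and sterol steps. The steepest falls were in Lss, Msmo1, Ebp and Sc5d. Lss, which cyclises oxidosqualene to lanosterol, had 20.8 CPM at 24 h and 34.8 CPM at 0 h in Vp16-TRF1ΔN cells, and 22.5 CPM at 24 h and 39.2 CPM at 0 h in TRF1ΔN cells. Its log2 change was -0.77 ± 0.08 (adjusted p = 0.00294, edgeR), and the treated libraries lay below the untreated ones in both lines. Msmo1, a methylsterol monooxygenase of the demethylation steps, had 40.5 CPM at 24 h and 68.3 CPM at 0 h in Vp16-TRF1ΔN cells and 51.8 CPM at 24 h and 78.2 CPM at 0 h in TRF1ΔN cells, a change of -0.67 ± 0.08 (adjusted p = 0.00379, edgeR). Ebp, the sterol isomerase also known as the emopamil-binding protein, was the most abundant sterol enzyme per length. It had 82.5 CPM at 24 h and 128 CPM at 0 h in Vp16-TRF1ΔN cells, and 89.6 CPM at 24 h and 136 CPM at 0 h in TRF1ΔN cells, a change of -0.61 ± 0.06 (adjusted p = 0.00311, edgeR). Sc5d, a sterol desaturase of the last steps, had 44.7 CPM at 24 h and 61.6 CPM at 0 h in Vp16-TRF1ΔN cells, and 41.0 CPM at 24 h and 64.3 CPM at 0 h in TRF1ΔN cells, a change of -0.56 ± 0.08 (adjusted p = 0.0067, edgeR). For each of these 4 genes DESeq2 made the same call. Both 24 h libraries lay below both 0 h libraries, an order that 39.8% of all genes showed.

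Sqle and Cyp51 fell with TGFβ and also read lower in the Vp16-TRF1ΔN than in the TRF1ΔN library at each time. Neither edgeR nor DESeq2 called that line difference for either gene. Sqle, the squalene epoxidase and a rate-limiting enzyme of the branch, had 62.0 CPM at 24 h and 91.6 CPM at 0 h in Vp16-TRF1ΔN cells, and 97.2 CPM at 24 h and 115 CPM at 0 h in TRF1ΔN cells. Cyp51, the lanosterol demethylase, had 46.8 CPM at 24 h and 76.4 CPM at 0 h in Vp16-TRF1ΔN cells, and 77.5 CPM at 24 h and 95.7 CPM at 0 h in TRF1ΔN cells. For both genes the treated TRF1ΔN library was above the untreated Vp16-TRF1ΔN library, so the 2 times overlapped, although within each line the 24 h library was below the 0 h library. The average changes were -0.40 ± 0.10 for Sqle (adjusted p = 0.0289, edgeR) and -0.50 ± 0.12 for Cyp51 (adjusted p = 0.0242, edgeR).

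Of the remaining sterol genes 1 of 5 was called. Dhcr7, a reductase of the last steps, fell slightly, with 13.3 CPM at 24 h and 16.3 CPM at 0 h in Vp16-TRF1ΔN cells and 13.1 CPM at 24 h and 18.9 CPM at 0 h in TRF1ΔN cells (log2 change -0.42 ± 0.11, adjusted p = 0.0314, edgeR, not called by DESeq2 at 0.131). Squalene synthase (Fdft1) stayed between 18.1 and 23.2 CPM in the 4 libraries, Tm7sf2, a sterol reductase, between 11.1 and 12.8 CPM, and Nsdhl and Hsd17b7, both of the demethylation complex, between 30.3 and 37.5 CPM and between 17.1 and 23.8 CPM. None of these 4 passed the test, with adjusted p from 0.23 to 0.911 by edgeR. Genes of neighbouring steps thus received different calls, with Msmo1 called lower and Nsdhl and Hsd17b7, its partners in demethylation, not called. The differences between these genes were not tested.

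**Figure D1:**
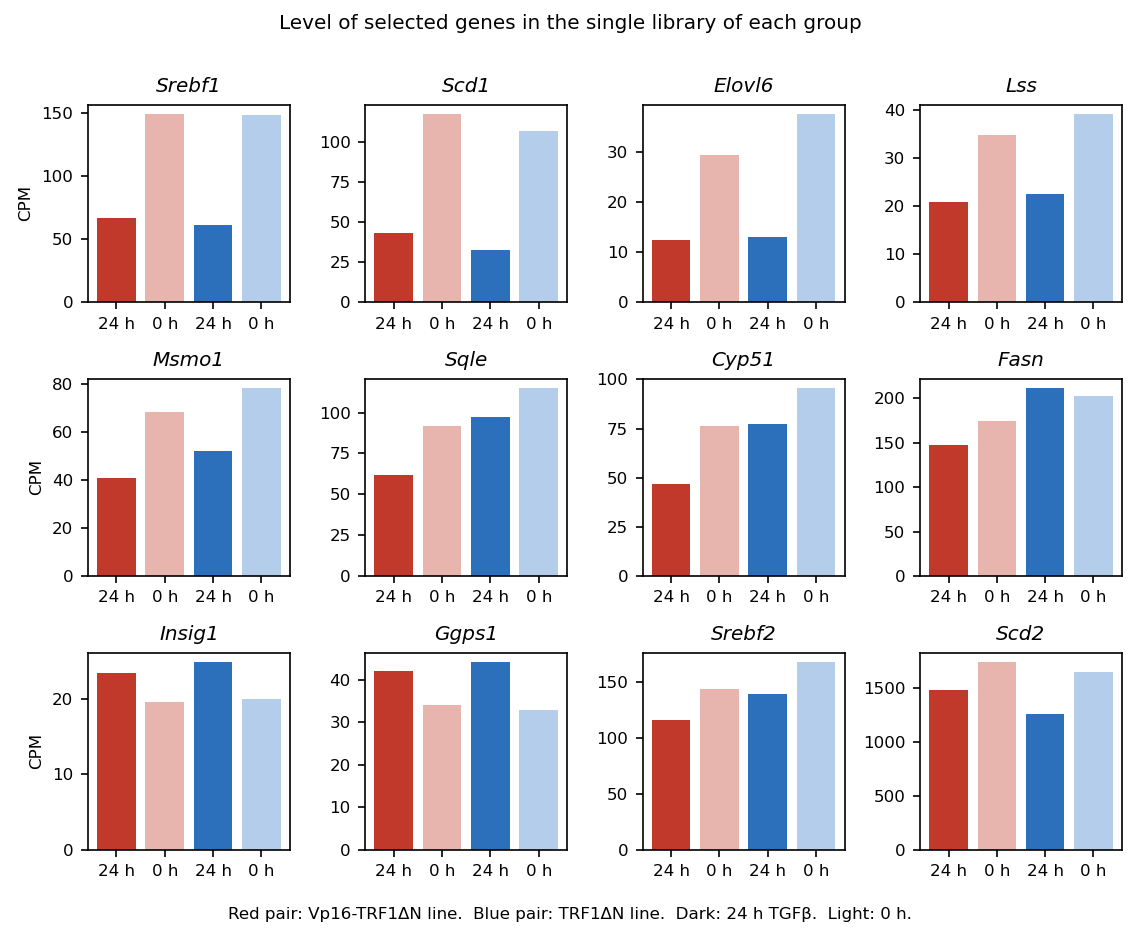
CPM of 12 of the genes in the single library of each group, as bars from 0 with no error, since each group is 1 library. The 24 h bars are well below the 0 h bars for Srebf1, Scd1, Elovl6, Lss and Msmo1 in both lines, above them for Insig1 and Ggps1, and for Fasn the bars follow the line more than the time.

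Regulators and sterol carriers. Srebf1 had the largest change of this group. It read 66.8 CPM at 24 h and 149 CPM at 0 h in Vp16-TRF1ΔN cells, and 61.1 CPM at 24 h and 149 CPM at 0 h in TRF1ΔN cells. The treated libraries were below the untreated ones by -1.16 (95% counting interval -1.23 to -1.09) in Vp16-TRF1ΔN cells and by -1.28 (-1.35 to -1.22) in TRF1ΔN cells on the log2 scale, and the average was -1.22 ± 0.07 (adjusted p = 0.00109, edgeR). Gene counts do not separate the Srebf1 isoforms. Srebf2, its sterol counterpart, had 117 CPM at 24 h and 144 CPM at 0 h in Vp16-TRF1ΔN cells, and 139 CPM at 24 h and 168 CPM at 0 h in TRF1ΔN cells, a change of -0.29 ± 0.06 (adjusted p = 0.0208, edgeR) that DESeq2 did not call (adjusted p = 0.0547). Untreated Srebf1 and Srebf2 were close in level per length, at 26.5 and 20.1 CPM per kb in Vp16-TRF1ΔN cells and 26.4 and 23.4 CPM per kb in TRF1ΔN cells.

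The retention proteins did not move together. Insig1, an SREBP target that holds SCAP in the endoplasmic reticulum, had 23.4 CPM at 24 h and 19.6 CPM at 0 h in Vp16-TRF1ΔN cells, and 24.9 CPM at 24 h and 19.98 CPM at 0 h in TRF1ΔN cells, a rise of 0.29 ± 0.08 (adjusted p = 0.0434, edgeR). Insig2, its SREBP-independent paralogue, had 40.2 CPM at 24 h and 44.1 CPM at 0 h in Vp16-TRF1ΔN cells, and 29.2 CPM at 24 h and 44.3 CPM at 0 h in TRF1ΔN cells. The untreated libraries were alike and the treated TRF1ΔN library was the lowest, and the average change of -0.37 ± 0.13 did not pass the test (adjusted p = 0.0782, edgeR). Scap, which escorts SREBP, stayed between 108 and 128 CPM in the 4 libraries (log2 change 0.09, adjusted p = 0.308, edgeR). Stard4, a cytosolic sterol carrier and SREBP-2 target, had 41.8 CPM at 24 h and 56.0 CPM at 0 h in Vp16-TRF1ΔN cells, and 42.7 CPM at 24 h and 63.4 CPM at 0 h in TRF1ΔN cells, a change of -0.50 ± 0.08 (adjusted p = 0.00792, edgeR).

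Fatty acid and glycerolipid genes. The genes of carbon supply and the synthase did not pass the test. Acly, which cleaves citrate to cytosolic acetyl-CoA, had 333 CPM at 24 h and 308 CPM at 0 h in Vp16-TRF1ΔN cells, and 322 CPM at 24 h and 307 CPM at 0 h in TRF1ΔN cells (log2 change 0.09 ± 0.06, adjusted p = 0.299, edgeR). Acaca, the acetyl-CoA carboxylase that makes malonyl-CoA, stayed between 30.0 and 32.8 CPM (change -0.03 ± 0.07, adjusted p = 0.754). Fatty acid synthase, Fasn, had 147 CPM at 24 h and 175 CPM at 0 h in Vp16-TRF1ΔN cells, and 212 CPM at 24 h and 202 CPM at 0 h in TRF1ΔN cells. Both Vp16-TRF1ΔN libraries were below both TRF1ΔN libraries (7.78% of all genes), and the average change with TGFβ of -0.09 ± 0.10 did not pass the test (adjusted p = 0.477, edgeR).

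Elovl6, Scd1 and Scd2 were the members of this role that fell. Elovl6 lengthens palmitate to stearate, and it had 12.4 CPM at 24 h and 29.4 CPM at 0 h in Vp16-TRF1ΔN cells, and 13.1 CPM at 24 h and 37.7 CPM at 0 h in TRF1ΔN cells. The average log2 change was -1.39 ± 0.10 (adjusted p = 0.00173, edgeR). Scd1 is the desaturase that turns stearate into oleate, and it had 43.1 CPM at 24 h and 118 CPM at 0 h in Vp16-TRF1ΔN cells, and 32.5 CPM at 24 h and 107 CPM at 0 h in TRF1ΔN cells. It changed by -1.45 (-1.53 to -1.37) in Vp16-TRF1ΔN cells and by -1.72 (-1.81 to -1.63) in TRF1ΔN cells, and by -1.58 ± 0.09 on average (adjusted p = 0.00113, edgeR), the lowest value among the 32. Its paralogue Scd2 was far more abundant, at 281 CPM per kb against 15.4 for Scd1 as means of the 4 libraries. It had 1487 CPM at 24 h and 1747 CPM at 0 h in Vp16-TRF1ΔN cells, and 1263 CPM at 24 h and 1650.3 CPM at 0 h in TRF1ΔN cells, with a change of -0.31 ± 0.08 (adjusted p = 0.0296, edgeR). Scd1 shared 4.66% and Scd2 4.01% of their 50-base words with any other gene. Lpin1, a phosphatidate phosphatase of glycerolipid synthesis, stayed between 12.3 and 14.9 CPM (change -0.12 ± 0.09, adjusted p = 0.332, edgeR).

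Per length, Scd2 was followed by Acly at 60.2, Ebp at 47.1, Hmgcs1 at 24.1, Srebf2 at 19.8 and Srebf1 at 18.9 CPM per kb, as means of the 4 libraries. At the other end were Idi1 at 0.330, Lpin1 at 1.42, Acaca at 1.83 and Fdps at 1.99 CPM per kb, of which Idi1, Acaca and Fdps share much sequence with other genes. Summed over the 32 genes, levels were 3064 CPM at 24 h and 3746 CPM at 0 h in Vp16-TRF1ΔN cells, and 3036 CPM at 24 h and 3810.3 CPM at 0 h in TRF1ΔN cells. Scd2 alone gave 1487 and 1747 CPM of the Vp16-TRF1ΔN sums, and 1263 and 1650 CPM of the TRF1ΔN sums. The mevalonate and sterol genes together gave 598 CPM at 24 h and 804 CPM at 0 h in Vp16-TRF1ΔN cells. In TRF1ΔN cells they gave 725 CPM at 24 h and 900 CPM at 0 h.

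The comparison of the lines sets Vp16-TRF1ΔN cells beside TRF1ΔN cells. With 1 line per construct, an effect of the Vp16 fusion cannot be told apart from other differences between the lines. Among these is the far lower TRF1ΔN row in the Vp16-TRF1ΔN line. Averaged over both times, no member was called different between Vp16-TRF1ΔN and TRF1ΔN cells by edgeR, which called 0.0% of all genes higher and 0.0% lower. Unadjusted p was under 0.05 for 8 members and for 12.5% of all genes. DESeq2 called no member either, and 0.0998% of all genes higher and 0.261% lower. The 8 members were Sqle (log2 difference -0.49 ± 0.10), Cyp51 (-0.52 ± 0.12), Hsd17b7 (-0.41 ± 0.09), Fdps (-0.38 ± 0.12), Fasn (-0.37 ± 0.10), Msmo1 (-0.27 ± 0.08), Srebf2 (-0.24 ± 0.06) and Scd1 (0.27 ± 0.09), and their adjusted p lay between 0.394 and 0.399. With 1 residual degree of freedom these values are descriptions of 4 libraries.

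The signs leaned to the lower side in the sterol genes. The log2 difference between the lines was below 0 for 25 of 32 members, against 51.2% of all genes, and for 18 of the 19 mevalonate and sterol genes, all but Sc5d. The median difference was -0.14 over the members and -0.01 over all genes tested. Both Vp16-TRF1ΔN libraries lay below both TRF1ΔN libraries for 8 members, Mvd, Fdft1, Sqle, Cyp51, Hsd17b7, Scap, Fasn and Acaca (7.78% of all genes), and above them for 1, Lpin1 (8.08%). At 24 h 3 members were at least 1.5-fold lower in Vp16-TRF1ΔN cells (4.36% of genes) and none higher (5.76%), and at 0 h none was lower (1.19%) or higher (1.16%).

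The 3 genes past that size at 24 h were Idi1, Sqle and Cyp51. Sqle differed between Vp16-TRF1ΔN and TRF1ΔN cells by -0.65 (95% counting interval -0.72 to -0.57) at 24 h and by -0.33 (-0.39 to -0.27) at 0 h. Cyp51 differed by -0.73 (-0.81 to -0.64) at 24 h and by -0.32 (-0.39 to -0.26) at 0 h. For both, the gap was thus already present at 0 h and was wider at 24 h. The Idi1 difference of -1.24 (-2.23 to -0.48) at 24 h rests on 16 counts against 49. Fasn differed by -0.53 (-0.58 to -0.48) at 24 h and by -0.21 (-0.26 to -0.17) at 0 h, just short of 1.5-fold at 24 h. Insig2 and Scd1 went the other way at 24 h, with 0.46 (0.35 to 0.57) and 0.41 (0.30 to 0.52). The proliferation markers were also lower in Vp16-TRF1ΔN than in TRF1ΔN cells at 24 h, 801 CPM against 1164 CPM summed, and the TGFβ-response markers were too, 2022 CPM against 4697 CPM summed; their part in these differences was not tested.

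**Figure D2:**
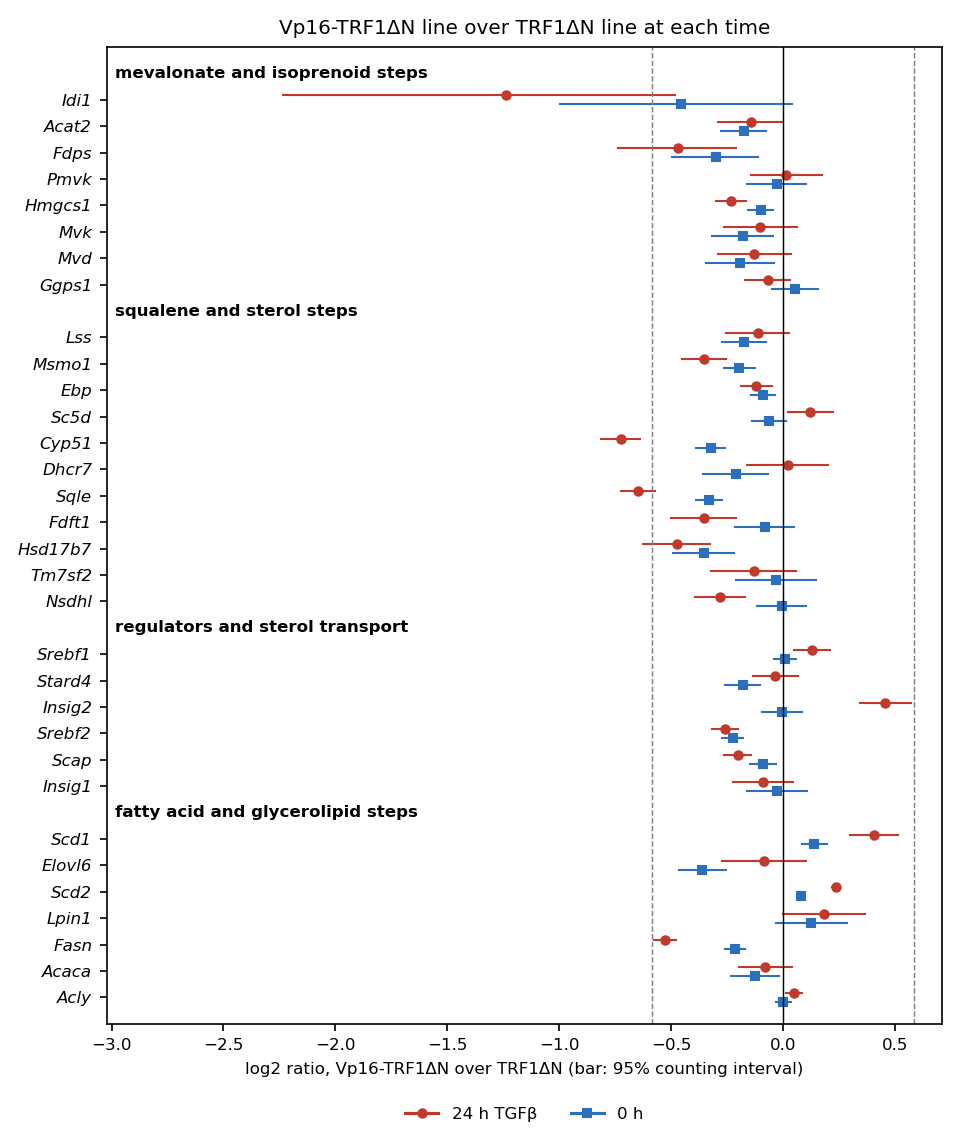
Log2 ratio of Vp16-TRF1ΔN over TRF1ΔN for each of the 32 genes at 24 h (circles) and at 0 h (squares), with 95% counting intervals as bars and dashed lines at 1.5-fold, grouped by role. Most sterol genes lie left of 0 at both times, with Sqle at -0.65 and -0.33 and Cyp51 at -0.73 and -0.32, and Insig2 and Scd1 lie right of 0 at 24 h.

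The difference of the TGFβ responses, Vp16-TRF1ΔN minus TRF1ΔN, was at least 1.5-fold for no member in either direction (4.3% of genes higher and 2.89% lower). Smaller differences went both ways, with the counting interval below 0 for 8 members (21.4% of genes) and above 0 for 8 (19.8%). Cyp51 changed with TGFβ by -0.71 (-0.79 to -0.62) in Vp16-TRF1ΔN cells and by -0.30 (-0.37 to -0.24) in TRF1ΔN cells, a difference of -0.40 (-0.51 to -0.29). Sqle changed by -0.56 (-0.64 to -0.48) in Vp16-TRF1ΔN cells and by -0.24 (-0.30 to -0.19) in TRF1ΔN cells, a difference of -0.32 (-0.41 to -0.22). These 2 sterol genes fell further in the Vp16-TRF1ΔN libraries, but not all sterol genes did. Of the 11 squalene and sterol genes, the interval lay below 0 for 5 and above 0 for 2. Those 2 were Sc5d, at 0.18 (0.06 to 0.31), and Dhcr7, at 0.23 (0.004 to 0.46). Insig2 changed by -0.14 (-0.24 to -0.04) in Vp16-TRF1ΔN cells and by -0.60 (-0.70 to -0.50) in TRF1ΔN cells, a difference of 0.46 (0.32 to 0.60). Scd1, Elovl6 and Scd2 were also lowered less in the Vp16-TRF1ΔN libraries, with differences of 0.27 (0.15 to 0.39), 0.28 (0.07 to 0.49) and 0.15 (0.13 to 0.18). These intervals cover counting error only, since each response comes from 1 pair of libraries.

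Other lipid genes were read from 8 lists written from general knowledge. The counts in them are to be read against the 23.5% of all genes called higher and the 25.1% called lower, and several lie near those shares. Of 9 genes of SREBP processing 3 rose (33.3%) and 1 fell (11.1%). Ubxn4 (log2 change 0.77), which acts in degradation of endoplasmic reticulum proteins, and Paqr3 (0.68), which holds SREBP and SCAP in the Golgi, were the highest, and the protease Mbtps2 fell by 0.37. Of 20 other genes of fatty acid supply, desaturation and elongation that were tested, 2 rose (10.0%) and 10 fell (50%), with a median of -0.41. Malic enzyme Me1, a source of NADPH, changed by -1.39 and Mid1ip1, an activator of acetyl-CoA carboxylase, by -1.36, and Acsl3 (0.68) and Fads3 (0.44) rose. Adjusted p lay between 0.00177 and 0.0316 for these 7 genes by edgeR, and DESeq2 did not call Paqr3 (0.216) or Mbtps2 (0.0609).

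Of 14 genes of glycerolipid and phospholipid synthesis 2 rose (14.3%) and 7 fell (50%). The triglyceride enzymes went apart, with Dgat2 at 14.8 CPM at 24 h and 41.7 CPM at 0 h in Vp16-TRF1ΔN cells and 8.82 CPM at 24 h and 40.0 CPM at 0 h in TRF1ΔN cells (log2 change -1.83 ± 0.18, adjusted p = 0.00302, edgeR), and Dgat1 higher by 0.42 (adjusted p = 0.0138, edgeR). Mogat2, an acyltransferase, fell furthest, by 2.54, at under 7.1 CPM, and Agpat3, another acyltransferase, rose by 1.12. Of 11 genes of the isoprenoid branch 1 rose (9.09%) and 4 fell (36.4%). Icmt, which methylates prenylated proteins, rose by 0.50, and Pdss1 and Coq2 of ubiquinone synthesis changed by -1.25 and -0.83.

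Of 14 genes of sterol uptake, transport and esterification 3 rose (21.4%) and 5 fell (35.7%). Gramd1a, which moves plasma membrane cholesterol to the endoplasmic reticulum, rose by 1.49 and Npc2, a lysosomal sterol carrier, by 0.58. Tmem97, a sterol-regulated membrane protein, and Lrp8, a lipoprotein receptor, changed by -1.41 and -0.87. Of 5 tested genes around the oxysterol receptor LXR 2 fell and none rose, among them Nr1h3, which encodes LXRα and is known to drive Srebf1 transcription, at 8.86 CPM at 24 h and 18.7 CPM at 0 h in Vp16-TRF1ΔN cells and 6.199 CPM at 24 h and 15.8 CPM at 0 h in TRF1ΔN cells (log2 change -1.21 ± 0.12, adjusted p = 0.00289, edgeR). Abca3, a lipid transporter, changed by -0.51. Of the oxysterol genes 1 was abundant enough to test, Hsd3b7, which rose by 1.54. Of 16 genes of fatty acid oxidation 2 rose (12.5%) and 5 fell (31.2%), with Pdk4 (2.56) and Acadvl (0.41) higher and the coactivator Ppargc1a (-1.52) and the thiolase Acaa2 (-1.0) lower.

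**Figure D3:**
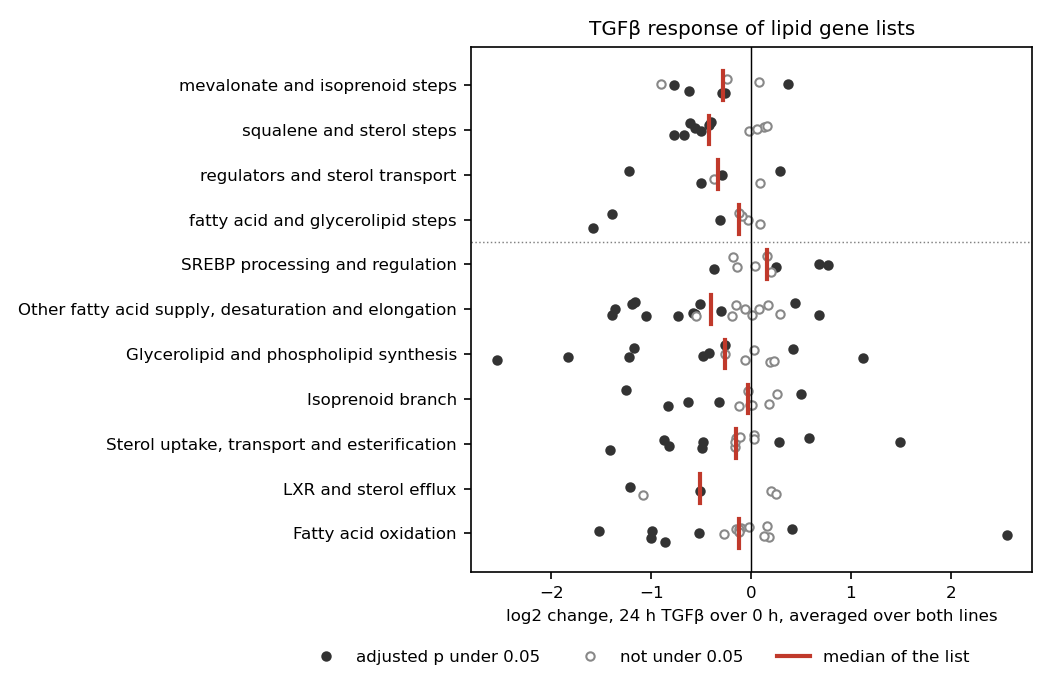
Log2 change with TGFβ, averaged over both lines, of every tested gene in the 4 roles of the 32 genes (above the dotted line) and in 7 other lipid lists (below it), 1 point per gene, filled where adjusted p was under 0.05, with the list's median as a bar. Called genes stand on both sides of 0 in most lists, and the medians run from -0.51 for the LXR list to 0.16 for SREBP processing. The oxysterol list, with 1 tested gene, is not drawn.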

How the data were processed

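Ribosomal RNA-depleted libraries of NMuMG cells were sequenced, 1 library per group. Per the submitters' processing notes, FastQC, STAR, HTSeq and DESeq2 were used with mouse build mm10. The sources used here give no version, annotation release or strand option. Deposited by the authors were raw counts per gene, on which every value here rests, and log2 values that equal log2(count/size factor + 1), which were checked and not used further. Of 21971 genes, 14305 passed filterByExpr in edgeR 4.0.16. The additive model (line and time, TMM scaling, quasi-likelihood test, two-sided) had 1 residual degree of freedom and treats the 2 lines as repeats, so a line-specific response enters its error. DESeq2 1.42.0 (Wald test) was an alternative. Standard errors are the log2 change over the square root of F. Untested pairs are log2 ratios (2 counts added as a prior) with an exact conditional (Clopper-Pearson) 95% interval, with Poisson variances for differences of responses. These cover counting error only, and 3 counts, the limit a count of 0 allows, were 0.0628 to 0.0878 CPM per library. Of these steps, only the edgeR fit of the 24 h term was tested on simulated counts.

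Whether the libraries came from separate cultures is not stated, so the spread that p-values rest on is only that between these samples, which may be technical. Members and lists were chosen with earlier results of these data known, and all 32 members are named. From each other list up to 2 called genes with the highest and 2 with the lowest change are named. Gene positions, exon lengths and shared 50-base words came from GENCODE M21, promoters from RefSeq. The 6 members without a promoter entry are Fdps, Fdft1, Stard4, Scd1, Sqle and Scd2. R 4.3.3 and Python 3.11.15 were used.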

Additional observations from a re-analysis of the deposited data

Results flagged for a closer look

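Fasn changed in opposite directions with TGFβ in the lines, by -0.25 (95% counting interval -0.30 to -0.20) in Vp16-TRF1ΔN cells and by 0.06 (0.02 to 0.11) in TRF1ΔN cells on the log2 scale. Both intervals exclude 0, and each response is 1 pair of libraries, so the difference between the lines was not tested. Fads1, a fatty acid desaturase outside the 32 genes, did the same, with -0.20 in Vp16-TRF1ΔN cells and 0.07 in TRF1ΔN cells. Lpin3, a relative of Lpin1, changed by -1.13 (2.19 CPM at 24 h and 4.84 CPM at 0 h) in Vp16-TRF1ΔN cells and by 0.98 (8.58 CPM at 24 h and 4.33 CPM at 0 h) in TRF1ΔN cells. For the difference of Vp16-TRF1ΔN from TRF1ΔN cells, Acsl3 had opposite signs at the times, -0.16 at 24 h and 0.17 at 0 h. Cav1, which encodes caveolin, also had opposite signs, 0.53 at 24 h and -0.04 at 0 h. None of these differences was tested.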

How the results depend on the processing

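With TGFβ, 17 members were called lower and 2 higher by edgeR with the line as a term. Without the line term, that is with no replicate block pairing the 24 h and 0 h libraries of a line, 10 were lower and 1 higher. At adjusted p under 0.01, 9 were lower and 0 higher. DESeq2's Wald test called 12 lower and 0 higher, and did not call Hmgcs1, Pmvk, Fdps, Dhcr7, Insig1, Srebf2 and Ggps1. Without a filter on low counts Idi1 (adjusted p = 0.0361, edgeR) and Insig2 (adjusted p = 0.0282, edgeR) were added, and 19 were lower. DESeq2 size factors and leaving out mitochondrially encoded genes changed no count. At 2-fold, 4 members were lower with TGFβ in Vp16-TRF1ΔN cells (9.07% of genes) and 3 in TRF1ΔN cells (10.7%). By the same size, 1 member was lower in Vp16-TRF1ΔN than in TRF1ΔN cells at 24 h (1.19% of genes). No member changed direction under the alternatives that refit each gene (DESeq2 size factors, no filter, DESeq2's Wald test, mitochondrially encoded genes left out), and none of these called a line difference for any member. An alternative chosen after seeing the data left out the 5 members with over 20% shared sequence. It left 15 lower (25.1% of all genes) and 2 higher (23.5%). Leaving out single libraries was not possible, since with 1 library per group the additive model keeps no residual degree of freedom. The counts limit Idi1 most, with 16 to 83 counts per library.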

Other observations

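At 24 h, 2 of 16 genes of fatty acid oxidation were at least 1.5-fold higher in Vp16-TRF1ΔN than in TRF1ΔN cells and none lower. Of 14 genes of glycerolipid and phospholipid synthesis 2 were higher and 1, Lpin3 (log2 difference -1.94), was lower. Among 21 other genes of fatty acid supply, desaturation and elongation 4 were higher and none lower. In the 14 genes of sterol uptake, transport and esterification 1 was higher and 2 were lower. Across all genes 5.76% were higher and 4.36% lower. Ppargc1a, a coactivator of oxidative metabolism, had 6.44 CPM in Vp16-TRF1ΔN cells and 1.84 CPM in TRF1ΔN cells at 24 h, a log2 difference of 1.78 (95% counting interval 1.43 to 2.20), and 0.44 (0.25 to 0.63) at 0 h. Cpt1a, which brings fatty acids into mitochondria, had 311 CPM in Vp16-TRF1ΔN cells and 201 CPM in TRF1ΔN cells at 24 h, a difference of 0.63 (0.59 to 0.67), and 0.14 (0.11 to 0.17) at 0 h. Dgat2 differed by 0.74 (0.55 to 0.94) at 24 h and by 0.06 (-0.03 to 0.15) at 0 h, and Acsl1, an acyl-CoA synthetase, by 0.68 (0.50 to 0.85) at 24 h and 0.17 (0.07 to 0.28) at 0 h. All 4 were called lower with TGFβ on average, and the change was smaller in the Vp16-TRF1ΔN than in the TRF1ΔN libraries. Of the 16 oxidation genes 3 were below 0 in this comparison at 24 h and 1 at 0 h, beside 51.3% and 51.2% of all genes. Ppargc1a, Cpt1a, Dgat2 and Acsl1 were picked after their values were seen, each value is 1 library against 1, and the differences were not tested.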
